A study of Mus musculus with 46 samples.

Results

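Aquaporins and carbonic anhydrases were described in mouse mammary tumors through 6 genes: the water channels Aqp1 and Aqp5 and the carbonic anhydrases Car2, Car3, Car4 and Car12. The 6 genes were chosen by name, with the distance between the tumors and normal mammary gland already known, and they are 6 of the 9329 genes that could be tested. All 6 passed the filter on low values (log2 value over 4 in at least 3 arrays), Aqp5 and Car12 through the tumors and Car4 mostly through the glands. Each gene was read from the probe set with the highest mean over all 46 arrays, where a probe set is the group of short probes that measures a transcript: 1416203_at for Aqp1, 1418818_at for Aqp5, 1448752_at for Car2, 1449434_at for Car3, 1418094_s_at for Car4 and 1428485_at for Car12.

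The samples were 41 primary mammary tumors of 8 genetically engineered mouse (GEM) models and 5 normal mammary glands, all from female mice, with 4 to 7 arrays per group. The basal-type models were C3TAg (SV40 T/t-antigens under the rat C3(1) promoter; 5 tumors, FVB strain), p53-/- (7 tumors, Balb/C, a transplant model) and Brca1-/-p53+/- (5 tumors, mixed 129B6/FVB). The luminal-type models carried a transgene under the long terminal repeat of the mouse mammary tumor virus (MMTV), all in FVB: MMTV-Hras with H-Ras (5 tumors), MMTV-H2N with Her2/neu (5), MMTV-C-Myc with c-Myc (4), MMTV-PymT with polyoma middle T antigen (6) and MMTV-Wnt with Wnt1 (4). The MMTV promoter was also part of 2 basal-type models. The study gives p53-/- as p53fl/fl;MMTV-cre and Brca1-/-p53+/- as BRCA1fl/fl;p53+/-;MMTV-cre, where MMTV drives the recombinase cre. The normal glands were from late-pregnant FVB mice (FVB pregnant), so the p53-/- and Brca1-/-p53+/- tumors had no gland of their own strain here. Strain and model cannot be told apart for these 2 models. No gland came from a mouse that was not pregnant. In every tumor and gland difference, tumor state and the pregnancy of the glands therefore cannot be told apart. The MMTV repeat is active in mammary epithelium and also in salivary and lymphoid tissue, and the C3(1) promoter is active in mammary ductal cells among others. The sources used here give no ages. In whole tumor pieces fewer cells of a type and less RNA per cell cannot be told apart.

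Aquaporins are membrane channels through which water crosses cells, and some of them also pass glycerol. Carbonic anhydrases are zinc enzymes that interconvert carbon dioxide with bicarbonate and a proton, and so supply ions to secretion and set pH inside and around cells. In glands the families work side by side: Aqp5 is the water channel at the apical membrane of salivary, lacrimal and sweat gland cells, and Car2 is a soluble enzyme of many secreting epithelia. Aqp1 is the water channel of capillary endothelium and red cells, Car3 is a soluble enzyme abundant in fat and skeletal muscle, Car4 is anchored to the outer cell surface, on capillaries among other sites, and Car12 spans the membrane with its active site outside the cell.

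The genes that separated tumors from gland did so in opposite directions, and the stretches ahead of their starts are shown for Aqp5 and Car12, the 2 genes above every gland in every tumor, and for Car4, the gene below every gland in every tumor. Each is the 250 bases before the gene's start in RefSeq (build GRCm38.p6, plus strand, written 5′ to 3′), at chr15:99590778-99591027 for Aqp5, chr9:66713436-66713685 for Car12 and chr11:84957504-84957753 for Car4. Capitals mark ACGTG, the core of the hypoxia response element, and GGGCGG, the GC box, on either strand; where ACGTG occurs on both strands the matches overlap as CACGTG.
Aqp5: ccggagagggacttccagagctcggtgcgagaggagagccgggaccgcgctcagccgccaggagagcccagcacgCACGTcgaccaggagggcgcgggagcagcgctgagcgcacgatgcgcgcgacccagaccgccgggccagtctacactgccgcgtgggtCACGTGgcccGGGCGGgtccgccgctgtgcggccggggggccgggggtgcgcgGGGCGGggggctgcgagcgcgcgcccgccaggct
Car12: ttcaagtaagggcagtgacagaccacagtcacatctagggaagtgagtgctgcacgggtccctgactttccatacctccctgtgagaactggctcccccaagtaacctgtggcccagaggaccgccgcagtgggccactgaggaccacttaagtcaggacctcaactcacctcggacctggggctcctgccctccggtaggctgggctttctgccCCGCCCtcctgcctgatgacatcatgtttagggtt
Car4: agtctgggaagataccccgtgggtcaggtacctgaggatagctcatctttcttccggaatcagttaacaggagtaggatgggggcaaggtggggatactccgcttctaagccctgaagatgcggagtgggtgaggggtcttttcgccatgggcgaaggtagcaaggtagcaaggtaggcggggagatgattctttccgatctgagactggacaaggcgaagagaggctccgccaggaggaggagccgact
The Aqp5 window held 3 matches to ACGTG, 2 of them overlapping, and 2 to GGGCGG, and the Car12 window held 1 GGGCGG and no ACGTG. The Car4 window held neither motif, and the Aqp1 window, which is not printed, held 1 GGGCGG. Of 27025 such windows, 16.6% held ACGTG and 32.9% held GGGCGG. The letters TATAAA, found in 13% of windows, were in none of the 4. The Aqp5 window was 78.4% G and C with 38 CpG dinucleotides, against medians of 52.0% and 6 over all windows, while Car12 (59.2%, 6 CpG) and Car4 (56.4%, 11 CpG) lay nearer to them. A match describes the letters only. Car2 and Car3 have no window here, and they neighbour each other, with Car1 and Car13, on chromosome 3.

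Aqp5 was low in the normal glands, at 2.50, 2.51, 2.97, 3.38 and 3.38 (log2 values; values of about 2 to 3 are the low end of this scale). All 41 tumors were higher, from 7.84 to 14.75. The mean of the 8 models was 9.07 higher than the glands on the log2 scale, or 538-fold, and no tumor overlapped the glands. The 5 MMTV-H2N tumors had the highest mean, with values of 14.13, 14.75, 14.70, 14.50 and 14.47 (14.51 ± 0.24, SD, n = 5). The MMTV-Hras tumors were at 13.55, 13.07, 13.17, 14.45 and 12.54, and the MMTV-C-Myc tumors at 13.97, 11.84, 13.05 and 12.46. The 6 MMTV-PymT tumors ran from 12.12 through a median of 13.31 to 14.07, so these 4 luminal-type models had the highest means. The 7 p53-/- tumors spread more widely, from 9.02 through 12.78 to 14.20, and reached into the luminal range. The Brca1-/-p53+/- tumors were at 8.48, 10.09, 11.38, 11.96 and 13.22. Lowest among the tumors were MMTV-Wnt, at 7.95, 10.17, 11.52 and 9.16, and C3TAg, at 10.16, 7.84, 8.77, 10.04 and 10.47. In the order of group means, MMTV-H2N stood above MMTV-Hras by 1.16 against a pooled SD of 0.53 and C3TAg stood 6.51 above the glands, and the other neighbours differed by less than their pooled SD.

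Car12 followed the same division between tumor and gland. The glands were at 3.22, 2.21, 1.99, 2.39 and 3.20, and every tumor was higher, from 4.22 in a C3TAg tumor to 12.49 in an MMTV-Hras tumor. The models averaged 7.02 above the glands on the log2 scale, or 130-fold. The 5 MMTV-Hras tumors were highest and close to each other at 11.61, 11.83, 12.40, 12.49 and 12.34 (12.13 ± 0.39, SD, n = 5), followed by MMTV-H2N at 11.03, 11.44, 11.24, 11.18 and 11.64. The MMTV-PymT tumors ran from 10.04 through 11.21 to 11.71. The p53-/- tumors lay at 6.76 to 10.82 with a median of 10.06, and 6 of the 7 were at 9.22 or above. MMTV-C-Myc (8.93, 9.27, 9.32 and 10.67) and MMTV-Wnt (10.70, 9.47, 8.63 and 7.49) overlapped them. The Brca1-/-p53+/- tumors split between 10.14 and 11.60 on one side and 6.09, 5.59 and 7.81 on the other. C3TAg was lowest of the models at 4.22, 5.14, 8.003, 7.41 and 5.47, which put its lowest tumor 1.00 above the highest gland. In the order of means, 4 steps were larger than their pooled SD: MMTV-Hras over MMTV-H2N (0.83 against 0.32), MMTV-PymT over p53-/- (1.40 against 1.11), Brca1-/-p53+/- over C3TAg (2.20 against 2.15) and C3TAg over the glands (3.45 against 1.198).

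Car4 showed the reverse. The glands were at 10.72, 11.22, 10.15, 12.54 and 10.67, and all 41 tumors were lower, 39 of them under 4. The exceptions were Brca1-/-p53+/- 2 at 8.44 and MMTV-C-Myc 2 at 4.42, and the models averaged 8.52 below the glands, or 366-fold. Since the tumors lie at the low end of the scale, the size of this difference is limited by where that end is. Within most models the values were nearly constant, for example 2.22, 2.19, 2.22, 2.20 and 2.19 in C3TAg and 2.28, 2.23, 2.28, 2.25 and 2.24 in MMTV-H2N. The other Car4 probe set, 1448949_at, gave 10.90 ± 1.11 (SD, n = 5) in the glands and means of 2.20 to 3.62 in the models. It was at 2.60 or below in every MMTV-C-Myc tumor, so the value of 4.42 was seen by 1 of the 2 probe sets.

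Car3 was high and even in the glands, at 14.94, 14.99, 15.004, 14.63 and 14.66, and scattered in the tumors, from 2.14 to 15.10. The models averaged 6.68 below the glands, or 102-fold, and 40 of 41 tumors were below every gland. The remaining tumor, Brca1-/-p53+/- 2, was above every gland at 15.10. Within a model the spread ran over most of the scale: the Brca1-/-p53+/- tumors were at 13.63, 15.10, 2.68, 7.44 and 6.77, and the MMTV-C-Myc tumors at 3.34, 13.22, 2.15 and 7.46. The MMTV-Wnt tumors were at 8.71, 4.36, 2.14 and 10.69. C3TAg was the only model whose 5 tumors all exceeded 10, at 12.05, 10.21, 10.42, 12.56 and 10.22. The MMTV-Hras tumors were at 6.33, 7.31, 4.51, 10.86 and 8.82 and the MMTV-H2N tumors at 2.73, 10.05, 10.51, 8.22 and 7.94. The p53-/- tumors ran from 2.92 through 7.97 to 12.05 and the MMTV-PymT tumors from 4.69 through 10.26 to 12.04. Below the glands, no neighbouring pair of models differed by more than its pooled SD. The other Car3 probe set, 1460256_at, averaged 13.30 in the glands and 3.45 to 7.02 in the models, with C3TAg highest again.

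Aqp1 was at 8.88, 10.77, 10.35, 9.96 and 9.54 in the glands, and 35 of the 41 tumors were below all of them. The other 6 tumors lay within the range of the glands, and the models averaged 3.96 lower, or 15.6-fold. The 6 were 3 Brca1-/-p53+/- tumors, 2 MMTV-Wnt tumors and 1 MMTV-C-Myc tumor. MMTV-Wnt stood nearest to the glands with 7.95, 8.76, 10.70 and 9.79, and Brca1-/-p53+/- followed with 7.85, 10.34, 9.43, 9.46 and 4.00. C3TAg (6.01, 8.01, 8.35, 4.71 and 4.21) and MMTV-C-Myc (4.29, 7.66, 9.03 and 2.93) were spread between. MMTV-PymT ran from 4.15 through 5.53 to 6.72 and p53-/- from 3.43 through 5.86 to 6.61. The lowest were MMTV-Hras at 3.02, 3.04, 4.02, 3.13 and 4.79 and MMTV-H2N at 2.78, 3.98, 4.01, 3.93 and 3.32, whose means were both 3.60. In the order of means, p53-/- over MMTV-H2N was the 1 step larger than its pooled SD (1.51 against 1.09).

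Car2 differed least between tumor and gland. The glands were at 12.43, 11.71, 11.68, 11.996 and 12.32, 33 tumors were below all of them, 4 were within their range and 4 were above. The models averaged 2.47 lower, or 5.55-fold. The MMTV-H2N tumors, at 11.26, 12.55, 12.77, 11.55 and 11.46, were close to the glands, with a mean of 11.92 against 12.03. MMTV-Hras was at 11.11, 13.01, 11.93, 7.99 and 8.43, MMTV-C-Myc at 10.24, 10.63, 9.72 and 10.99, and MMTV-PymT ran from 8.43 through 10.77 to 11.85. The remaining models held the low values. Brca1-/-p53+/- was at 9.02, 8.90, 2.97, 7.52 and 5.51, C3TAg at 11.18, 5.71, 6.65, 11.72 and 10.87, and MMTV-Wnt at 6.32, 12.06, 6.89 and 8.50, while p53-/- ran from 2.97 through 9.71 to 12.57. No step in the order of the 9 group means was larger than its pooled SD.

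**Figure D1:**
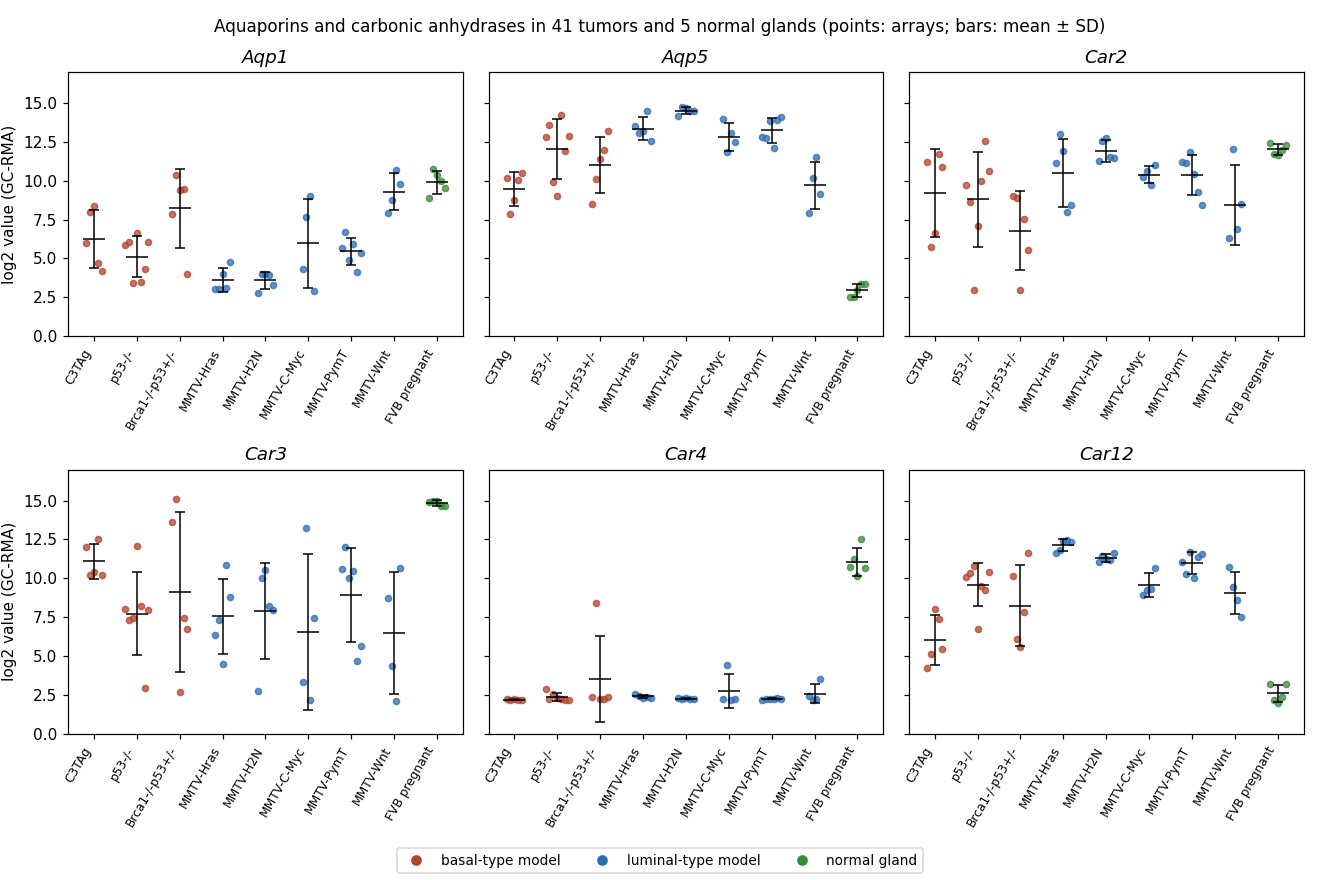
Log2 values (GC-RMA) of the 6 genes on the vertical axes for each array (points) of the 8 tumor models and the normal glands, with the mean and SD of each group as bars. Aqp5 and Car12 lie above every gland in all 41 tumors, Car4 below every gland in all 41, and Car3, Aqp1 and Car2 spread widely within several models.

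The tumor and gland differences above carry no test, since the 6 genes were proposed with them known. Over all 9329 genes, every tumor was above every gland for 0.461% and every tumor was below every gland for 1.23%. Of the 6 genes, 2 were above and 1 below throughout, as the choice of the genes would have it.

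The study grouped the models into basal and luminal types, and the first test compared the 17 basal-type with the 24 luminal-type tumors. Aqp5, Car2 and Car12 were lower in basal-type tumors with the tumors taken as independent, and Aqp1, Car3 and Car4 did not pass the test. Car12 averaged 8.15 ± 2.30 (SD, n = 17) against 10.73 ± 1.30 (SD, n = 24), a difference of -2.58 (standard error 0.55) or 5.98-fold, with an adjusted p of 0.0007174 by limma. Aqp5 averaged 10.98 ± 1.93 against 12.87 ± 1.75, a difference of -1.89 (standard error 0.56, adjusted p = 0.01081). Car2 averaged 8.33 ± 2.87 against 10.41 ± 1.84, a difference of -2.08 (standard error 0.71, adjusted p = 0.02578). The calls covered 3 of the 6 genes, where 27.9% of all genes were called. The ranges of the types overlapped for each gene.

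None of these 3 calls held when the model was entered as a random block, which counts tumors of a model as related (correlation 0.313). The adjusted p values were then 0.1005 for Car12, 0.2224 for Aqp5 and 0.3874 for Car2, and 0.525% of all genes were called. Within the FVB tumors, where C3TAg is the only basal-type model, the difference was -4.69 for Car12 and -3.41 for Aqp5 (adjusted p = 2.549e-06 and 0.001616, limma) but -1.18 for Car2 (adjusted p = 0.3723). Leaving out p53-/- 3 or Brca1-/-p53+/- 3, each with a Car2 value of 2.97, also ended the Car2 call, with adjusted p values up to 0.05349. Of the genes not called, Aqp1 differed by 0.95 (95% interval -0.48 to 2.39), Car3 by 1.504 (-0.56 to 3.57) and Car4 by 0.24 (-0.42 to 0.89).

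The second test set each model against the equal-weighted mean of the other 7. Of 48 tests, 8 were called higher, 6 lower and 34 not, and the calls fell on Aqp1, Aqp5, Car2 and Car12. The 14 calls were 29.2% of the tests, where 18.4% of the same tests over all genes were called. Car12 divided the models most: 69.2% of its sum of squares over the tumors lay between models, against 66.9% for Aqp5, 60.4% for Aqp1, 34.6% for Car2, 16.7% for Car3 and 16.4% for Car4, and 44.1% for the median gene.

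C3TAg was low in the pair of genes that are high in tumors. Car12 was 4.08 lower than in the other models (standard error 0.59, adjusted p = 1.567e-06, limma) and Aqp5 2.93 lower (standard error 0.57, adjusted p = 0.0001417), in a model where 28.9% of all genes were called. The differences lay between -4.57 and -3.62 for Car12 and between -3.18 and -2.53 for Aqp5 whichever array was left out. Car3 was 3.34 higher in C3TAg but not called (adjusted p = 0.08533).

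MMTV-Hras and MMTV-H2N had calls in the same direction for 3 genes. In MMTV-Hras, Car12 was 2.88 higher (adjusted p = 0.0004702), Aqp5 1.53 higher (adjusted p = 0.04528) and Aqp1 2.68 lower (adjusted p = 0.005607, limma), with 24.4% of genes called. In MMTV-H2N, Aqp5 was 2.85 higher (adjusted p = 0.0002824), Car12 1.93 higher (adjusted p = 0.01452) and Car2 2.70 higher (adjusted p = 0.03801), with 25.2% of genes called. Aqp1 in MMTV-H2N differed by -2.67 (adjusted p = 0.00541). The Car2 call was lost without any 1 of the 5 MMTV-H2N tumors (adjusted p up to 0.1083), in the FVB arrays alone (0.05243), with each array centred on its median (0.05075) and without 3 tumors low in Epcam (0.05089). The MMTV-Hras call of Aqp5 was lost in 16 of the 46 fits that leave out an array (adjusted p up to 0.1515) and with a replicate block (0.05212).

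In MMTV-PymT, where 17.8% of genes were called, Car12 was 1.57 higher (adjusted p = 0.04047) and Aqp5 1.40 higher without being called (adjusted p = 0.05921, limma). The Car12 call was lost without 5 of the 6 MMTV-PymT tumors taken 1 at a time (adjusted p up to 0.1145) with a replicate block (0.06555), with each array centred on its median (0.05887) and without the 3 tumors low in Epcam (0.05505). Aqp5 was called in the FVB arrays alone (0.02198), with array weights (0.001379) and without those 3 tumors (0.0363). In MMTV-Wnt, where 6.32% of genes were called, Aqp1 was 3.84 higher (standard error 0.79, adjusted p = 0.001856) and Aqp5 lower, with a difference of -2.65 (standard error 0.63, adjusted p = 0.006614). The Aqp5 call was lost without MMTV-Wnt 1, at an adjusted p of 0.09645. In Brca1-/-p53+/-, where 18.6% of genes were called, Aqp1 was 2.60 higher (standard error 0.72, adjusted p = 0.01031) and Car2 differed by -3.17 (standard error 0.98, adjusted p = 0.02056). None of the 6 genes was called in p53-/- or MMTV-C-Myc, where 16.3% and 9.52% of all genes were. In p53-/- the estimates for Aqp5 and Car12 were 0.03 (95% interval -0.97 to 1.03) and -0.03 (-1.06 to 1.01), so this basal-type model sat at the middle of the models for both.

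**Figure D2:**
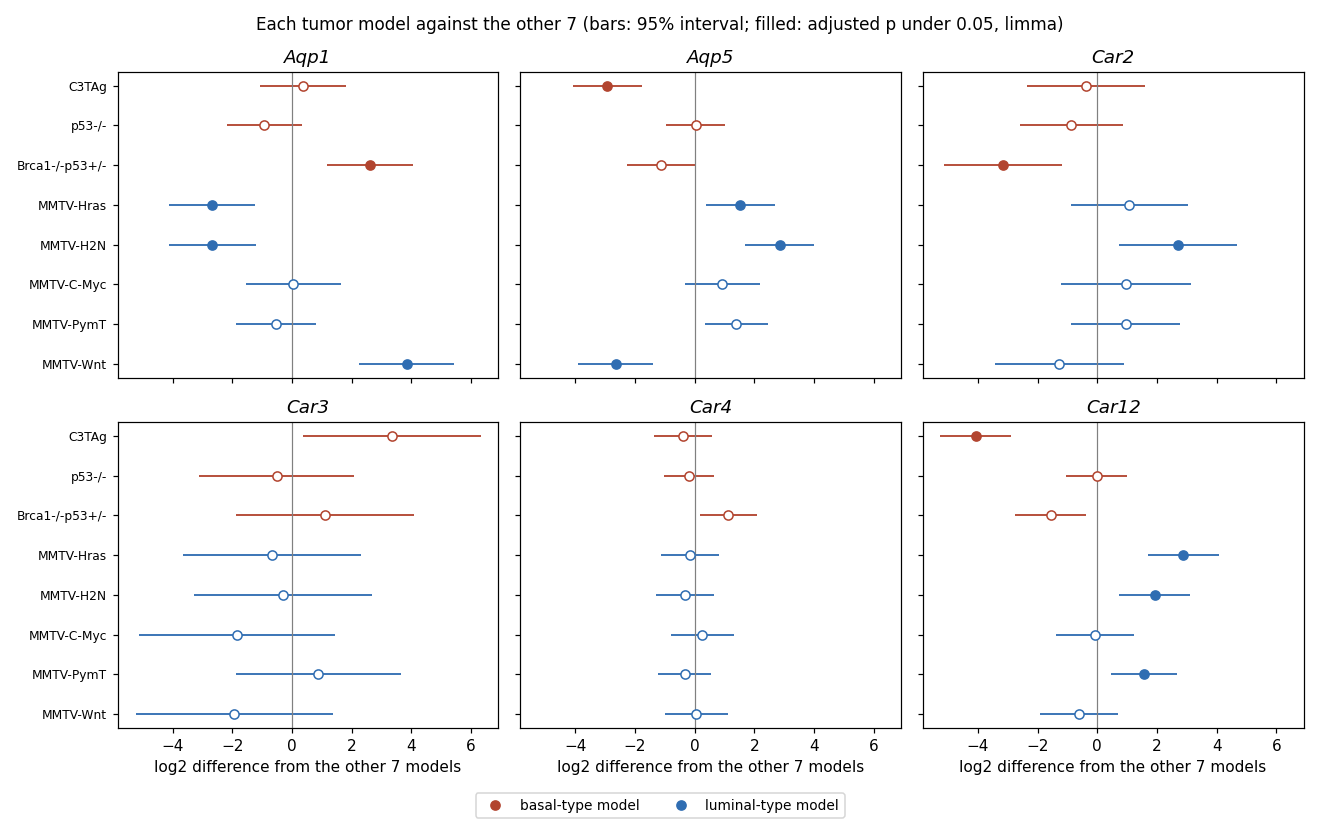
Difference of each model from the mean of the other 7 on the log2 scale (horizontal axes) with the 95% interval, filled where the adjusted p was under 0.05 by limma. Car12 and Aqp5 run from 4.08 and 2.93 lower in C3TAg to 2.88 higher in MMTV-Hras and 2.85 higher in MMTV-H2N, while no Car3 or Car4 interval belongs to a called test.

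Some tumors stood apart by their markers. Epcam, an adhesion protein of epithelial cells, was at 10.55 or above in 38 tumors and below 8 in 3: Brca1-/-p53+/- 3 at 5.28, Brca1-/-p53+/- 4 at 2.99 and MMTV-Wnt 3 at 3.60. The luminal keratin Krt8 was at 10.49 or above in every tumor. Those 3 tumors had Aqp1 values of 9.43, 9.46 and 10.70 and Col1a1 values, a collagen of fibroblasts, of 14.71, 12.24 and 14.80. Without them the Aqp1 difference of Brca1-/-p53+/- was 1.85 (adjusted p = 0.1534, limma) and its Car2 difference -2.21 (adjusted p = 0.2013), so neither was called, while MMTV-Wnt kept its Aqp1 call at 3.49 (adjusted p = 0.01353) and its Aqp5 call. The Aqp1 call of Brca1-/-p53+/- was also lost without its tumor 2 or its tumor 4 alone (adjusted p up to 0.07695). Its Car2 call was lost without tumor 3 (adjusted p = 0.1297), with array weights (0.05262) and without 6 tumors high in Bpifa2 (0.05662). Brca1-/-p53+/- 2 had the muscle creatine kinase Ckm at 14.41, the adipocyte hormone Adipoq at 14.22 and the red cell enzyme Alas2 at 10.48, and was the tumor with the highest Car3 and Car4.

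Markers of fat moved with Car3. Of the 10 adipocyte markers, 7 were measured, and their summed level (log2) was 15.4 to 16.4 in the glands, 16.2 in Brca1-/-p53+/- 2 and 6.0 to 14.1 in the other 40 tumors. Over the 41 tumors, Car3 and this sum had a Pearson r of 0.825 (Spearman 0.869), and 0.789 without the 2 tumors farthest from the median sum. The 3 genes most like Car3 over the tumors were Adipoq (r = 0.870), the fatty acid carrier Fabp4 (0.808), which with Adipoq is among those markers, and the matrix protein Dpt (0.780). Adipoq was under 4 in 23 tumors, and in 17 of those 23 Car3 was above 4 by the probe set used. That probe set was under 4 in 6 of the 41 tumors. The other Car3 probe set was under 4 in 23 of the 41 (median 3.30), so the count depends on the probe set. The number of tumors under 4 by the other probe set equalled that by Adipoq in each model but MMTV-Hras and MMTV-H2N. It was 4 against 3 in MMTV-Hras and 2 against 3 in MMTV-H2N. Whether they were the same tumors was not tested. Skeletal muscle markers, all 9 measured, summed to 10.7 to 16.5 in the glands. Over the tumors they had r = 0.456 with Car3, and 0.310 without the 2 farthest. C3TAg had the highest median of the models in both sums, 12.8 for muscle and 10.8 for adipocyte markers. What these cells contributed to the Car3 difference between tumor and gland was not tested.

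Aqp1 was set beside the markers of the cells known to carry it. All 12 endothelial markers were measured, and their summed level was 10.4 to 11.8 in the glands, 10.3 to 11.5 in MMTV-Wnt and 9.0 to 12.9 in Brca1-/-p53+/-, against 8.8 to 9.8 in MMTV-Hras, 9.2 to 9.9 in MMTV-H2N and 7.7 to 9.0 in MMTV-PymT. The sum was 9.68 to 11.60 in p53-/-, 9.67 to 10.23 in C3TAg and 9.19 to 11.03 in MMTV-C-Myc. In p53-/-, whose sums overlapped those of the glands, all 7 tumors had Aqp1 below every gland. MMTV-PymT, with the lowest sums, had Aqp1 between MMTV-Hras and C3TAg. Over the tumors r was 0.632 (Spearman 0.607), and 0.602 without the 2 farthest. The endothelial cadherin Cdh5 was at 6.68 to 8.30 in the glands and 3.45 to 8.12 in the tumors, and Pecam1 was under 4 in 32 of the 41 tumors and in 3 of the 5 glands. Of the 7 erythroid markers 2 were measured, and their summed level was 7.66 to 10.31 in the glands and below all of these in 39 of the 41 tumors (median 4.40). The exceptions, Brca1-/-p53+/- 2 at 10.50 and MMTV-C-Myc 2 at 8.89, are the 2 tumors that stood out in Car4. Over the tumors this sum had r = 0.266 with Aqp1, and 0.00881 without the 2 farthest. The genes most like Aqp1 were the serine protease Htra1 (r = 0.836), the Ras regulator Rasa3 (0.823) and the calcium-binding S100a4 (0.817). Other lists had a higher r with Aqp1 than endothelium: 0.768 for the 9 fibroblast and matrix markers (0.749 without the 2 farthest) and 0.670 for the basal and myoepithelial markers (0.651). The macrophage markers had r = 0.630 (Spearman 0.654), and 0.553 without the 2 farthest. The fibroblast and matrix sum was 13.92 to 17.17 in MMTV-Wnt and 12.25 to 17.17 in Brca1-/-p53+/-, against 10.16 to 13.48 in MMTV-Hras and 10.28 to 12.86 in MMTV-H2N. It was 14.65 to 15.10 in the glands, 13.68 to 16.47 in p53-/-, 13.66 to 15.88 in C3TAg, 12.88 to 15.25 in MMTV-C-Myc and 10.64 to 13.96 in MMTV-PymT. The part of endothelial, red cell, fibroblast, basal cell or macrophage content in the Aqp1 differences was not tested.

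Salivary markers differed between the models in which Aqp5 and Car12 were highest. Bpifa2, a protein of salivary secretion, was at 15.3 to 15.5 in 4 MMTV-Hras tumors and above 14 in MMTV-PymT 2 and MMTV-Wnt 2, and at 9.73 or below in the other 35 tumors. All 17 basal-type tumors had Bpifa2 at 2.28 or below, with Aqp5 between 7.84 and 14.20 and Car12 between 4.22 and 11.60. In MMTV-H2N, the model with the highest Aqp5, Bpifa2 was at 2.11 to 4.90. Of the 9 salivary markers 8 were measured, and their summed level was 12.1 to 17.1 in MMTV-Hras, 11.22 to 13.95 in MMTV-H2N, 5.5 to 6.0 in C3TAg and 10.86 to 12.03 in the glands. The sum was 9.92 to 16.75 in MMTV-PymT, 8.16 to 13.20 in MMTV-C-Myc and 5.55 to 15.57 in MMTV-Wnt. In the other basal-type models it was 5.40 to 10.09 in p53-/- and 5.33 to 13.65 in Brca1-/-p53+/-. Brca1-/-p53+/- 5, at 13.65, also had the highest Aqp5 (13.22) and Car12 (11.60) of its model. Over the tumors this sum had r = 0.677 with Car12 (0.652 without the 2 farthest) and 0.519 with Aqp5. The sum of the milk and secretory markers had a higher r with Aqp5 (0.588) and a lower r with Car12 (0.485). The largest r in size for Aqp5 was with the basal and myoepithelial sum (-0.774), and the fibroblast and matrix sum had -0.632 with Aqp5 and -0.645 with Car12. Their part in these differences was not tested. Without the 6 tumors high in Bpifa2, which leaves 1 MMTV-Hras tumor assumed to vary like the other groups, the models averaged 9.20 above the glands for Aqp5 and 7.07 for Car12. The MMTV-H2N calls of Aqp5 and Car12 and both C3TAg calls also held without them, the class call of Car2 did not (adjusted p = 0.09326), and 9 of the 48 model tests were called in place of 14. The 5 lost calls were the 3 of MMTV-Hras, Car12 in MMTV-PymT (adjusted p = 0.1093) and Car2 in Brca1-/-p53+/-.

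**Figure D3:**
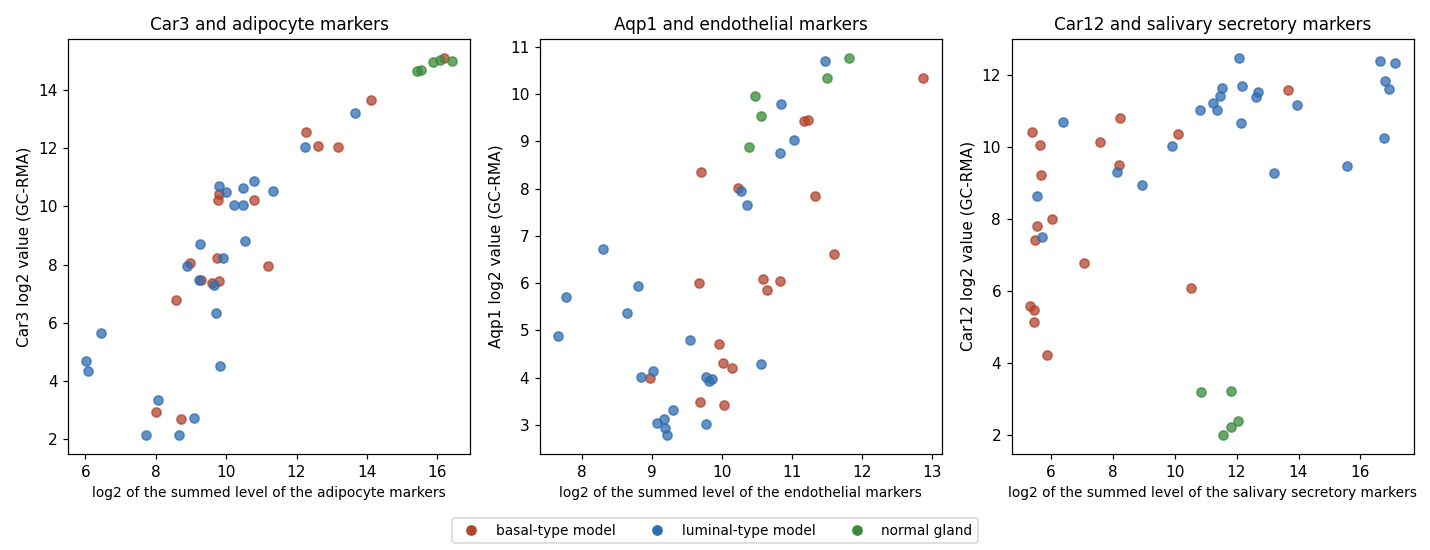
Log2 value of Car3, Aqp1 and Car12 (vertical axes) against the log2 of the summed level of adipocyte, endothelial and salivary secretory markers (horizontal axes), 1 point per array. Car3 rises with the adipocyte sum across tumors and glands, Aqp1 with the endothelial sum less closely, and for Car12 the glands lie apart from the tumors at sums of 10.86 to 12.03.

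The glands had the markers of a secreting gland: the casein Csn2 was at 15.21 to 15.50 and the whey protein Wap at 15.48 to 15.66. In the tumors Csn2 ran from 2.23 to 15.12, and in MMTV-H2N, where Car2 was nearest to the glands, it was at 13.14 to 14.42. Wap ran from 3.11 to 14.63 in the tumors, and in MMTV-H2N it was only at 6.76 to 8.80, below the 9.58 to 13.01 of MMTV-PymT. The sum of the 10 milk and secretory markers had r = 0.650 with Car2 over the tumors (Spearman 0.521). The basal keratin Krt14 was at 3.0 to 3.1 in all MMTV-Hras and MMTV-H2N tumors, at 8.21 to 10.72 in MMTV-PymT, at 6.73 to 10.89 in MMTV-C-Myc and at 9.70 to 13.92 in MMTV-Wnt. In the basal-type models it was at 8.43 to 13.20 in C3TAg, 6.24 to 13.97 in Brca1-/-p53+/- and 3.06 to 12.31 in p53-/-, so its ranges overlapped between the types. The macrophage receptor Csf1r was at 9.69 to 14.14 in the tumors and 10.30 to 10.65 in the glands.

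The remaining members were compared with the genes most like them in the tumors. Aqp5 was most like Kcnn4 (r = 0.890, Spearman 0.912), a calcium-activated potassium channel of secreting epithelia, then Acox2 (0.826) and Trib1 (0.809). Car12 was most like Lss (0.849), an enzyme of sterol synthesis, Gne (0.831), the first enzyme of sialic acid synthesis, and the Golgi protein Gorasp1 (0.810). Car2 was most like Etfrf1 (0.746), Cmas (0.731), which activates sialic acid, and Elf5 (0.724), a transcription factor of the secretory lineage. For Car4 the closest were Slc7a10 (0.971), Cap2 (0.956) and the adipocyte hormone Lep (0.955), but without MMTV-C-Myc 2 and Brca1-/-p53+/- 2 these values fell to 0.0886, -0.0596 and 0.231. Leaving out the 2 tumors farthest from the gene's median left r between 0.573 and 0.863 for the genes nearest to the other 5. Aqp5 and Car12 had r = 0.647 with each other over the tumors and 0.169 after each model's mean was removed.

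The other members of the families were tested between tumors and glands, with 24.2% of all genes called higher in the tumors and 17.1% lower. Differences weight the 8 models equally, while means are over the 41 tumors. Of 10 other aquaporins 4 were tested, and 2 of them fell and none rose, with a median of -2.23 against 0.20 over all genes. Aqp3, a channel for water and glycerol, averaged 3.72 ± 1.37 (SD, n = 41) in the tumors and 9.70 ± 1.02 (SD, n = 5) in the glands, a difference of -5.97 (adjusted p = 1.132e-11, limma). Aqp7, the glycerol channel of adipocytes, differed by -3.70 (adjusted p = 3.629e-07), while Aqp4 differed by -0.77 (adjusted p = 0.1476) and Aqp9 by 0.06 (adjusted p = 0.9185). Both were under 4 in most arrays, but Aqp4 reached 6.90 in an MMTV-Hras tumor and 5.65 in a gland, and Aqp9 reached 6.84 in an MMTV-PymT tumor.

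Of 12 other carbonic anhydrases 5 were tested, and 1 rose and 2 fell, with a median of 0.85. Car9, a membrane enzyme known to be induced by low oxygen, rose by 3.54, from 3.03 ± 1.00 (SD, n = 5) to 6.69 ± 1.82 (SD, n = 41; adjusted p = 0.0001239, limma). The mitochondrial Car5b differed by -2.72 (adjusted p = 0.001086) and the soluble Car13 by -2.25 (adjusted p = 0.007669). Car6, the secreted enzyme of saliva and milk, was not called (2.75 higher, adjusted p = 0.06517), nor was the catalytically inactive Car8 (0.85, adjusted p = 0.4907), and both differed between models. Aqp8, Car11 and Car14 were on the array but did not pass the filter.

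Car6 spread most widely between the models, with means of 14.94 in MMTV-Hras, 13.45 in MMTV-H2N and 13.05 in MMTV-PymT against 5.42 in MMTV-Wnt and 2.93 in C3TAg, and 6.46 in the glands. Against the other 7 models it was 6.56 higher in MMTV-Hras (adjusted p = 0.0001393), 4.85 in MMTV-H2N (0.003197) and 4.40 in MMTV-PymT (0.006382, limma). It differed by -7.18 in C3TAg (2.213e-05), -3.01 in p53-/- (0.04562) and -4.33 in MMTV-Wnt (0.04329). Between the types it was lower in basal-type tumors, with a difference of -6.39 (adjusted p = 0.00011), which became an adjusted p of 0.06975 once the model was a random block. Car8 was higher in the same 3 luminal models, by 2.90, 4.32 and 2.43 (adjusted p = 0.02121, 0.0007508 and 0.04643, limma), and differed by -3.01 in Brca1-/-p53+/- (0.0221). The remaining family calls were Aqp3 in C3TAg (2.11), Aqp4 in MMTV-Hras (1.41), Car5b in MMTV-PymT (2.52) and Car13 in MMTV-H2N (-2.49). These were 14 calls in 72 tests of the 9 other family genes, or 19.4%, near the 18.4% of all genes.

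**Figure D4:**
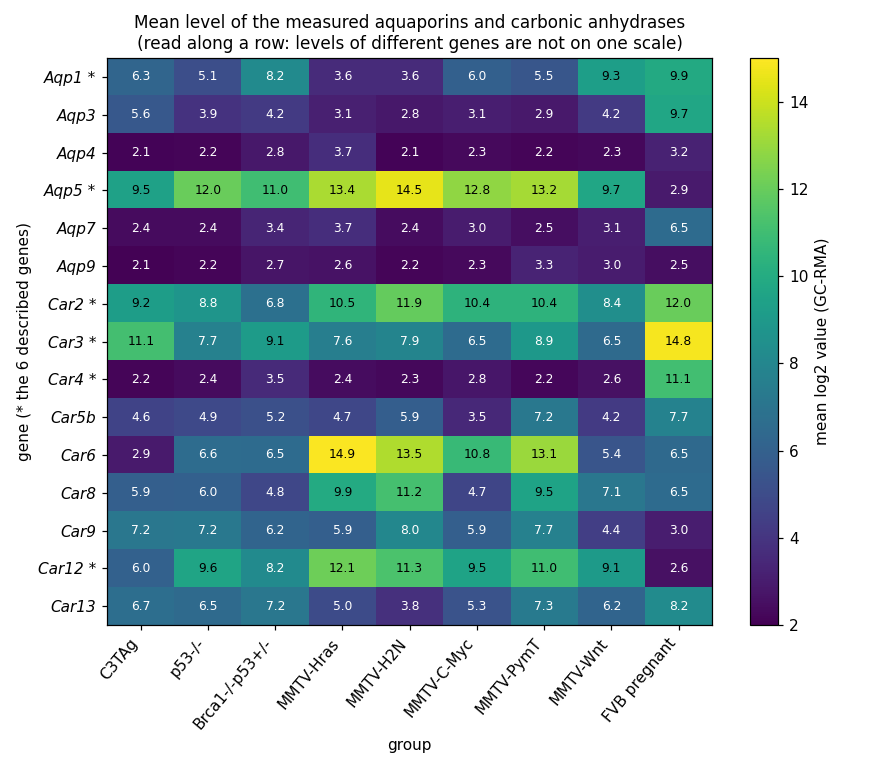
Mean log2 value (GC-RMA, colour and number) of the 15 measured aquaporins and carbonic anhydrases (rows; the 6 described genes are starred) in the 8 models and the normal glands (columns), to be read along a row. Aqp5, Car9 and Car12 are lowest in the glands, and Aqp1, Aqp3, Aqp7, Car2, Car3, Car4, Car5b and Car13 are highest there.

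The genes that move the same ions and water were tested as lists. Of the bicarbonate and proton transporters 10 of 22 were tested: 1 rose (the anion exchanger Slc4a2, 0.92, adjusted p = 0.0081, limma) and 2 fell, the lactate and proton carrier Slc16a1 (-3.23, adjusted p = 4.739e-08) and the sodium bicarbonate cotransporter Slc4a4 (-2.16, adjusted p = 0.02437), with a median of -0.15. Slc4a4 was not called without gland 1, 2 or 3 (adjusted p up to 0.1768) or without the 6 tumors high in Bpifa2 (0.06218), nor Slc4a2 without gland 1 or 3 (up to 0.05366). Of the channels and cotransporters of epithelial salt and fluid transport 17 of 19 were tested, with a median of 0.41: 2 rose, the potassium chloride cotransporter Slc12a7 (1.26, adjusted p = 0.002872) and the potassium channel subunit Kcne3 (1.58, adjusted p = 0.03207), and none fell. Kcne3 was not called under quantile normalization, median centring, a floor of 4 or in FVB arrays alone (adjusted p up to 0.07555), nor without gland 2, 3, 4 or 5 (up to 0.124). Slc12a7 was not called without gland 1 (adjusted p = 0.05642).

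Of the hypoxia-inducible genes 15 of 16 were tested, and 5 rose and 5 fell, with a median of 0.31. Car9 was 1 of the 5 that rose, with P4ha1, a collagen prolyl hydroxylase (3.41, adjusted p = 2.423e-05), the stress gene Ddit4 (2.48, adjusted p = 2.15e-06, limma), Adm and Ero1a. Those that fell were Pfkfb3, a regulator of glycolysis (-2.66, adjusted p = 3.709e-06), Bnip3 (-2.28), Hk2, Ndrg1 and Pdk1, so the list did not move in 1 direction. Calls were lost for Adm without gland 2 or 3 (adjusted p up to 0.05692), for Ero1a without gland 1 (0.06466) and for Pdk1 without gland 2, 3, 4 or 5 (up to 0.132). Those of Ero1a and Pdk1 were also lost with the mean of all probe sets (0.06985 and 0.2155), and that of Pdk1 with a replicate block (0.05538). Over the 5 lists together, 8 of 50 genes rose (16%, against 24.2% of all genes) and 11 fell (22%, against 17.1%).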

How the data were processed

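RNA from 41 tumors and 5 normal glands, each from an individual mouse, was hybridised to Affymetrix mouse genome expression arrays, 1 array per sample. The deposited log2 values were made by the authors with GC-RMA in Partek, which corrects background by probe GC content and normalizes arrays to each other. The authors also filtered probe sets on MAS5 detection calls, with a limit of 3 samples called present or marginal, and versions are not given in the sources used here. The table held 18586 probe sets with no missing value, log2 values from 1.70 to 15.98 and array medians from 6.48 to 7.48, and the number of arrays per group limits the precision. GC-RMA compresses low values, so differences that end near 2 or 3 are uncertain in size.

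Probe sets were named through the platform annotation with symbols updated through RefSeq. Of them 16962 had 1 gene, 569 several and 1055 none, and 16941 were found in RefSeq. Genes were kept at a log2 value over 4 in at least 3 arrays, read from the probe set with the highest mean, which left 9329. Tests used lmFit and eBayes of limma 3.58.1 in R 4.3.3, two-sided, with Benjamini-Hochberg adjustment over all genes and an adjusted p under 0.05 as the call. Types were compared over the tumors, and models in a fit of all 9 groups. The model as a random block used duplicateCorrelation with statmod 1.5.0. The fit was tested on simulated data with independent arrays, which cannot show how the type test behaves when tumors of a model are related. Marker lists are given as the log2 of their summed level. Promoter windows and plots used Python 3.11.15 with matplotlib 3.10.9.

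The 6 genes and all lists were chosen with earlier results of these data known. Named were the 6 genes, the 3 genes with the highest Pearson r to each over the tumors, every measured aquaporin and carbonic anhydrase, the 3 called genes with the largest difference in each other list, and the defining marker of each cell type. The others named in the hypoxia list complete its calls and were chosen after their values were seen. Replicate numbers of the titles were checked for pairing: deviations from the group means of same-numbered arrays of different groups correlated at 0.0144 on average (-0.332 to 0.447 over 166 pairs), so the numbers were not used as pairs. No arrays were identical. Alternatives were other scalings, filters, probe set rules and strains, array weights, blocks and leaving out each array. Leaving out tumors low in Epcam or high in Bpifa2 was chosen after seeing the data.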

Additional observations from a re-analysis of the deposited data

Results flagged for a closer look

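In 54 sets of arrays (6 genes in 9 groups), 3 arrays lay far from the others of their group by Dixon's test at the 95% level, which chance passes in about 1 of 20 groups. Brca1-/-p53+/- 2 had Car4 at 8.44, where the next of its group was at 2.37. MMTV-C-Myc 2 had Car4 at 4.42, where the next was at 2.25 (2.60 or below in all 4 tumors by the other probe set), and Car3 at 13.22, the highest of its group. The p53-/- 4 tumor had Car12 at 6.76, where the next was at 9.22, and its adipocyte sum of 12.6 was the highest of its group. The summed adipocyte markers were at 16.2 in Brca1-/-p53+/- 2 and 13.6 in MMTV-C-Myc 2, each the highest of its group, and their part in these values was not tested.

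The distance between tumor and gland differed between basal-type and luminal-type tumors for 3 genes with the tumors taken as independent: by -1.89 for Aqp5, -2.08 for Car2 and -2.58 for Car12 (basal minus luminal, log2; adjusted p = 0.01081, 0.02578 and 0.0007174, limma). These are the values of the type test given above, not a further test. Both types are set against the same glands, which were left out of that fit. With the model as a random block the adjusted p values were 0.2224, 0.3874 and 0.1005.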

How the results depend on the processing

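The count of the 6 genes called between the types, 3, was 0 with the model as a random block and 2 to 3 without any 1 array. The count of model calls, 14, was 9 without the 6 tumors high in Bpifa2, where MMTV-Hras keeps 1 tumor, and 12 to 18 without any 1 array. The other pathway genes called between tumors and glands, 8 higher and 11 lower, were 5 to 9 and 9 to 12 without any 1 array. The low count of 5 came from leaving out FVB pregnant 1 or FVB pregnant 3. The tumor and gland differences of the 6 genes kept their sign and moved by less than the SD within groups under both scalings and without either set of tumors.

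The replicate numbers do not pair the arrays, and a replicate block gave 3 type calls, 12 model calls and 9 higher and 10 lower pathway genes. Of 40 single tests, 2198 of 2284 values under an alternative kept direction and side of the threshold, 77 lost the call, 7 gained it and 2 changed sign. Both changes of sign were of the Car4 difference between types, which was not called: -0.22 in FVB arrays alone and -0.13 without Brca1-/-p53+/- 2 (-0.13 to 0.32 without any 1 array). The median of all genes moved from 0.197 to 0.111 under quantile normalization and -0.0153 under median centring. The cause of the lost calls was not tested.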
